A study of Mus musculus with 12 samples.

Results

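The cytosolic ribosomal protein genes were described in RNA of bone marrow monocytes and macrophages from mice with and without a human leukemia. The genes were chosen by name. A transcript cluster, the unit for which the array gives 1 value, was taken when its only gene symbol was Rpl or Rps with a number and an optional a, l or x, or was Rplp0, Rplp1, Rplp2 or Rpsa. Rps6k kinases and symbols with -ps, which mark pseudogenes, were left out, and the cluster with the highest mean over the 12 arrays stood for its gene. This gave 39 genes of 30702 measured symbols, 23 of the large and 16 of the small ribosomal subunit. The label covered most but not all of them: RefSeq lists Rpl6l as a pseudogene and Rps4l as a transcribed pseudogene. RefSeq holds 83 mouse symbols of this form, so the 39 were a part of the ribosome. A further 37 occurred in clusters that carry several symbols, and 7 were not analysed here.

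All mice were Rag2-/-gamma c-/- on a BALB/c background, a strain without T, B or natural killer cells of its own that accepts human cells. MEC1 is an established human B-cell line from chronic lymphocytic leukemia, here given into a vein, so that any leukemia came from 1 line and met a host without lymphocytes. The 4 groups of 3 mice were mice with MEC1 and untreated mice of the same age at 21 days (early stage, aged 11 weeks), and the same at 31 days (late stage, aged 13 weeks). Monocytes and macrophages were purified from marrow with magnetic beads, and each mouse gave 1 Clariom D array. Values are log2 intensities of probes, in which a difference of 1 is a doubling. They cannot be ranked between genes, because probes differ in brightness, and the small number of arrays limits their precision.

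Ribosomal proteins bind ribosomal RNA in the nucleolus to form the small subunit, which reads the messenger RNA, and the large subunit, which joins amino acids. Their messenger RNAs begin with a terminal oligopyrimidine tract, a C followed by a run of C and T, through which growth signals control their translation together. In the marrow, cells that divide or synthesise much protein make many ribosomes, and inherited defects of single ribosomal proteins cause the red cell failure known as Diamond-Blackfan anemia.

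At 31 days, 13 of the 38 tested ribosomal protein genes were lower and 1 was higher in mice with MEC1 (limma, Benjamini-Hochberg adjusted p under 0.05 over all tested clusters). Over all 37240 tested clusters, 21.1% were lower and 22.6% were higher on that day. Among clusters with a mean over 6 in controls, where most members lay, the share lower was between 20.4% and 56.6%, depending on the level. The 13 were Rps26, Rpl6, Rpl38, Rpl8, Rps29, Rpl4, Rps28, Rpl10a, Rps20, Rps4x, Rpsa, Rps7 and Rps14, and the higher one was Rpl10l. The median log2 change of the 38 was -0.56, from -2.08 to 1.07, against 0.04 over all tested clusters, and 32 of the 38 changes were negative. In 24 of the 38, all 3 MEC1 arrays lay below all 3 control arrays, as they did in 28.4% of all tested clusters, and in 3 they lay above, against 31.2%. In a bulk sample, fewer cells of a type that holds much ribosomal protein message and less of it per cell cannot be told apart.

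How many genes were lower at 31 days depended on single arrays and on the scaling. The count was 2 without MEC1 31 d replicate 3, 2 without control 31 d replicate 2, 4 without control 31 d replicate 1 and 7 without control 31 d replicate 3. Of all tested clusters, 14.6%, 14.4%, 18.1% and 16.3% were lower in these fits, in that order, against 21.1% with all arrays. Quantile normalization, which forces the same distribution on every array, left 3 lower and 4 higher, against 15.1% and 13.5% of all tested clusters. Centring each array on its median gave 25 lower and 0 higher, against 36.9% and 7.48% of all tested clusters. Centring moved the median change of all tested clusters to -0.39. Rps26, Rps20 and Rpl10l were the 3 genes that passed in all 12 fits that each left out 1 array. The median change of the members was -0.33 without MEC1 31 d replicate 3, and between -0.70 and -0.46 when any other array was left out.

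**Figure D1:**
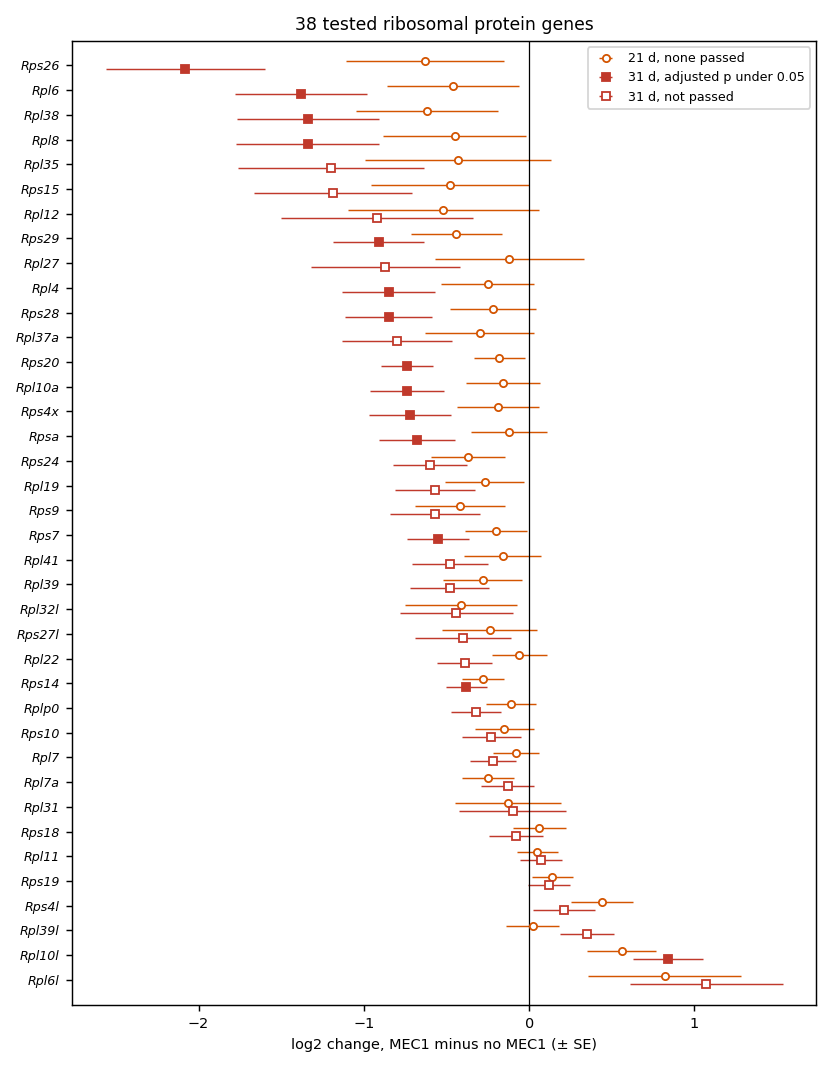
Log2 change with MEC1 (mean with MEC1 minus mean of controls of the same day, ± SE, n = 3 mice per group) for the 38 tested ribosomal protein genes, at 21 days (circles) and 31 days (squares, filled where adjusted p was under 0.05). The changes at 31 days run from -2.08 for Rps26 to 1.07 for Rpl6l, and 32 of 38 lie to the left of 0.

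Rps26 sits at the messenger RNA exit of the small subunit and is one of the Diamond-Blackfan genes. RefSeq places the mouse gene at chr10:128624529-128626506 (GRCm38.p6). Its log2 intensities at 31 days were 16.18, 16.14 and 16.20 in control mice and 14.38, 14.82 and 13.07 in mice with MEC1. Every MEC1 array lay more than 1 log2 unit below every control, and the third MEC1 replicate was lowest. The log2 change of Rps26 was -2.08 (SE 0.48, adjusted p = 0.00719), which is 4.24-fold lower. At 21 days its controls stood at 15.53, 16.56 and 16.55 and its MEC1 arrays at 14.73, 15.76 and 16.25. The groups overlapped on that day, and the log2 change of -0.63 (SE 0.48, adjusted p = 0.436) did not pass. Without MEC1 31 d replicate 3, the 31-day change was -1.57 (adjusted p = 0.0238).

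Rps20, a protein of the head of the small subunit encoded at chr4:3831584-3835655, had a smaller change with less spread. At 31 days it stood at 7.38, 7.79 and 7.49 in controls and at 6.88, 6.86 and 6.70 with MEC1. The groups did not overlap, and the 3 MEC1 mice were close together. Rps20 fell by 0.74 (SE 0.157, adjusted p = 0.00494), the smallest adjusted p among the 38. With quantile normalization its change was -0.15 (adjusted p = 0.405).

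Among large subunit proteins, the fall was largest in Rpl6, Rpl38 and Rpl8. Rpl6 stood at 8.69, 8.88 and 8.57 in 31-day controls and at 8.0, 7.56 and 6.44 with MEC1. It fell by 1.38 (SE 0.401, adjusted p = 0.0192). Rpl38, whose loss in mice alters the axial skeleton, stood at 10.02, 10.03 and 9.65 in controls and at 9.22, 8.66 and 7.80 with MEC1, a fall by 1.34 (SE 0.43, adjusted p = 0.0285). Rpl8, which lies next to the peptidyl transferase centre where peptide bonds form, had almost the same value in the 3 controls, 16.19, 16.19 and 16.15. With MEC1 it stood at 15.47, 15.24 and 13.81 and fell by 1.34 (SE 0.433, adjusted p = 0.0294). In all 3 genes the groups did not overlap and the third MEC1 replicate was lowest. Without that array their changes were -0.93, -0.96 and -0.82, none of which passed (adjusted p = 0.0658, 0.111 and 0.0997).

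Rps29, a small zinc-binding protein of the small subunit, stood at 15.63, 15.73 and 15.53 in 31-day controls and at 14.68, 15.17 and 14.32 with MEC1. It fell by 0.91 (SE 0.275, adjusted p = 0.0228). Rpl4, which lines the tunnel through which the new peptide leaves, stood at 18.89, 18.94 and 18.86 in controls and at 18.48, 18.42 and 17.25 with MEC1. It fell by 0.85 (SE 0.282, adjusted p = 0.033), and the third MEC1 replicate was more than 1 log2 unit below the other two. Without that array the changes of Rps29 and Rpl4 were -0.71 and -0.45, neither of which passed (adjusted p = 0.087 and 0.0622). The 6 lower genes not yet described had changes of -0.85 in Rps28, -0.74 in Rpl10a, -0.72 in the X-linked Rps4x, -0.68 in the laminin receptor gene Rpsa, -0.55 in Rps7 and -0.38 in Rps14. Their adjusted p ran from 0.0225 for Rpl10a to 0.0378 for Rps4x, and none of the 6 passed without MEC1 31 d replicate 3. The change of Rps14 was 0.14 with quantile normalization (adjusted p = 0.402).

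**Figure D2:**
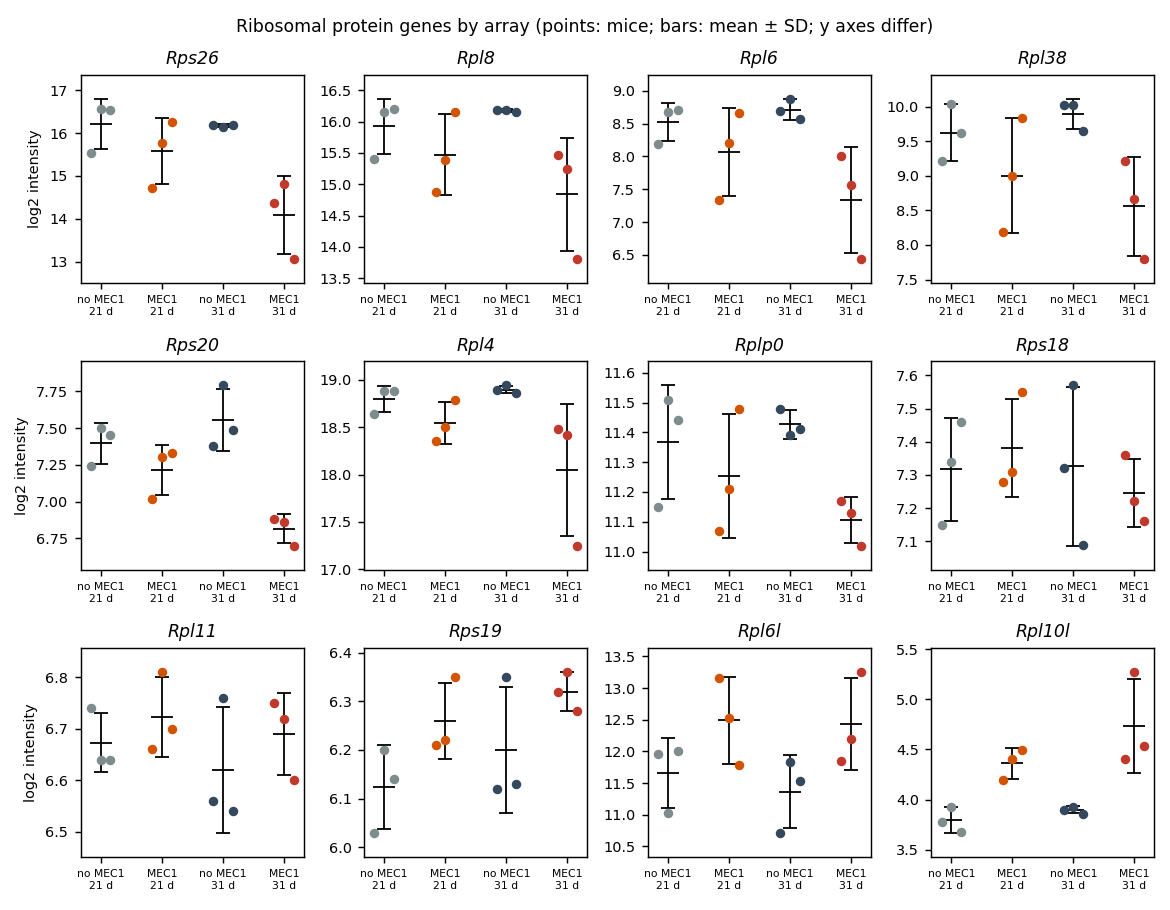
Log2 intensity of 12 ribosomal protein genes in each of the 12 arrays (points, 1 per mouse; bars, mean ± SD of 3 mice; the vertical axes differ and do not start at 0). At 31 days Rps26, Rpl8, Rpl6, Rpl38, Rps20 and Rpl4 are lower in all 3 MEC1 mice, and Rpl6l and Rpl10l lie higher. Rps18, Rpl11 and Rps19 overlap between the groups on that day. At 21 days the groups overlap in Rpl6l and not in Rps19. Rpl6l did not pass on either day.

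Several ribosomal protein genes differed little between the groups. Rpl11, which binds and inhibits MDM2 when ribosome assembly fails, stood at 6.56, 6.76 and 6.54 in 31-day controls and at 6.75, 6.72 and 6.60 with MEC1. Its change was 0.07 (SE 0.126, adjusted p = 0.661). Rps19, the first gene found mutated in Diamond-Blackfan anemia, had a change of 0.12 (SE 0.126, adjusted p = 0.449) with controls at 6.12, 6.35 and 6.13 and MEC1 arrays at 6.32, 6.36 and 6.28. The groups overlapped in both genes. Rps18, often used as a reference gene, had a change of -0.08 (SE 0.161, adjusted p = 0.697) and Rpl7 one of -0.22 (SE 0.138, adjusted p = 0.213). With quantile normalization these 4 genes were the ones called higher: Rpl11 by 0.59, Rps19 by 0.52, Rps18 by 0.56 and Rpl7 by 0.48 (adjusted p = 0.005, 0.0113, 0.021 and 0.0208).

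Rplp0, the stalk protein of the large subunit and another common reference gene, stood at 11.48, 11.39 and 11.41 in 31-day controls. With MEC1 it stood at 11.17, 11.13 and 11.02, below every control of that day. The change of -0.32 (SE 0.151) did not pass (adjusted p = 0.104). Rpl22, whose loss blocks a step of T cell development, had a change of -0.39 (SE 0.165, adjusted p = 0.0746). In Rpl35 and Rps15 the changes were large but so was the spread: -1.20 (SE 0.563, adjusted p = 0.102) and -1.19 (SE 0.478, adjusted p = 0.0629). Rpl12 had a change of -0.92 (SE 0.579, adjusted p = 0.208), with MEC1 arrays from 12.37 to 14.25. Of the remaining genes, Rps24 came closest to the threshold with a change of -0.60 (SE 0.226, adjusted p = 0.0516). Rpl19 and Rps9 had changes of -0.57 each (adjusted p = 0.0752 and 0.109), Rps10 had one of -0.23 (adjusted p = 0.306) and Rpl31 one of -0.10 (adjusted p = 0.803).

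Apart from Rpl11 and Rps19, the genes with positive changes were variant copies, though the variants Rps27l and Rpl32l had negative ones. Rpl10l is a copy of the X-linked Rpl10 used in the testis and lies at chr12:66283379-66284401. It stood at 3.90, 3.93 and 3.86 in 31-day controls and at 4.40, 5.27 and 4.53 with MEC1. The groups did not overlap, and Rpl10l rose by 0.84 (SE 0.21, adjusted p = 0.0104). These values are dim: Rpl10l ranged from percentile 44.3 to percentile 73.2 of its array, and the 8202 clusters at or below 4 in controls had a median change of 0.54. With the arrays centred no member was called higher, and with quantile normalization the change of Rpl10l was 0.49 (adjusted p = 0.199).

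Rpl6l, the pseudogene related to Rpl6, moved the other way from Rpl6. It stood at 10.72, 11.84 and 11.53 in 31-day controls and at 11.85, 12.19 and 13.25 with MEC1. Its groups just failed to overlap, and the change of 1.07 (SE 0.463) did not pass (adjusted p = 0.0813). At 21 days the change was 0.82 (SE 0.463, adjusted p = 0.304). Rpl39l, the testis copy of Rpl39, had a change of 0.35 at 31 days (SE 0.162, adjusted p = 0.101), while Rpl39 had one of -0.48 (SE 0.239, adjusted p = 0.121). Rps4l had a change of 0.21 (SE 0.188, adjusted p = 0.366). Rpl39l and Rps4l were dim too, with means of 4.11 and 4.72 in 31-day controls. All tested clusters at 4 to 6 had a median change of 0.14. Rps27l, a target of the tumor suppressor Trp53, had one of -0.40 (SE 0.288, adjusted p = 0.272), and Rpl32l one of -0.44 (SE 0.339, adjusted p = 0.297). Rpl3l, the form of Rpl3 in striated muscle, was not tested, since it exceeded the array median in 1 array. Its values lay between 3.61 and 4.30.

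The 2 subunits had similar medians. Of 22 tested large subunit genes, 5 were lower and 1 was higher at 31 days, with a median change of -0.48. Of 16 small subunit genes, 8 were lower and 0 were higher, with a median of -0.58. Of all tested clusters, 21.1% were lower and 22.6% were higher on that day.

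At 21 days none of the 38 passed (limma, 0 lower and 0 higher), where 2.51% of all tested clusters were lower and 1.83% higher. At an unadjusted p under 0.05 there were 3, 1 lower and 2 higher, and the smallest adjusted p was 0.143 for Rpl10l. The changes ran from -0.63 to 0.82 with a median of -0.21, against 0.02 over all tested clusters, and 31 of 38 were negative. Rps14, a protein of the small subunit platform, was the 1 gene with all MEC1 arrays below all controls, which 13.7% of tested clusters showed. It stood at 6.81, 6.99 and 6.90 in controls and at 6.54, 6.59 and 6.73 with MEC1, a change of -0.28 (SE 0.125, adjusted p = 0.206). In 3 genes, Rpl10l, Rps4l and Rps19, the MEC1 arrays lay above all controls, as in 14.9% of tested clusters. Rpl10l had a change of 0.56 (SE 0.21), Rps4l of 0.44 (SE 0.188, adjusted p = 0.189) and Rps19 of 0.14. Rps24, another Diamond-Blackfan gene, and Rps29 had changes of -0.37 and -0.44 (adjusted p = 0.345 and 0.349). With array weights, which give arrays that fit the group means less well a smaller say, 15 genes were lower and 2 higher at 21 days, when 20.1% of all tested clusters were lower and 22.7% higher under that setting. The median of the members at 21 days was -0.07 without MEC1 21 d replicate 1, -0.34 without MEC1 21 d replicate 3, and -0.32 when control 21 d replicate 1 was left out.

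The change at 31 days was not shown to differ from that at 21 days in any member. The difference of the 2 changes passed in 0 of 38 (limma), against 0.00269% of tested clusters, and 1 of 38 had an unadjusted p under 0.05. That gene was Rps20, whose change was more negative at 31 days by 0.56 (log2 difference -0.56, SE 0.222, adjusted p = 0.359). For Rps26 the difference was -1.45 (SE 0.679, adjusted p = 0.396), for Rpl39l 0.32 (SE 0.229, adjusted p = 0.526) and for Rpl10l 0.27 (SE 0.297, adjusted p = 0.679). The median difference was -0.31, and 32 of 38 were negative. It was -0.12 without MEC1 31 d replicate 3, -0.18 without MEC1 21 d replicate 3 and -0.47 without MEC1 21 d replicate 1.

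Without MEC1, mice at 31 days and at 21 days had similar levels. In that comparison 0 of 38 passed (limma; 0 of 38 at an unadjusted p under 0.05), against 0.00806% of tested clusters, and the median change was 0.07. The members with the smallest p in each direction were Rps4l (0.39, adjusted p = 0.807), Rps28 (0.28, adjusted p = 0.967), Rpl39l (-0.29, adjusted p = 0.888) and Rpl7a (-0.12, adjusted p = 0.975). Control mice also varied little among themselves at 31 days. The median SD of the members was 0.131 in those controls and 0.43 in mice with MEC1 of that day, and 0.19 and 0.306 at 21 days.

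The spread within the MEC1 groups followed single mice. MEC1 31 d replicate 3 held the lowest of all 12 values in 25 of 38 members, and MEC1 21 d replicate 1 in 5. Of the 3 late MEC1 mice, replicate 3 was lowest in 33 of 38. The median level of the members was 10.02, 10.03 and 9.68 in the 31-day controls and 9.42, 9.34 and 8.85 with MEC1, and the groups did not overlap. At 21 days it was 9.75, 10.04 and 9.76 in controls and 8.95, 9.46 and 9.83 with MEC1, where the third MEC1 mouse lay within the controls.

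**Figure D3:**
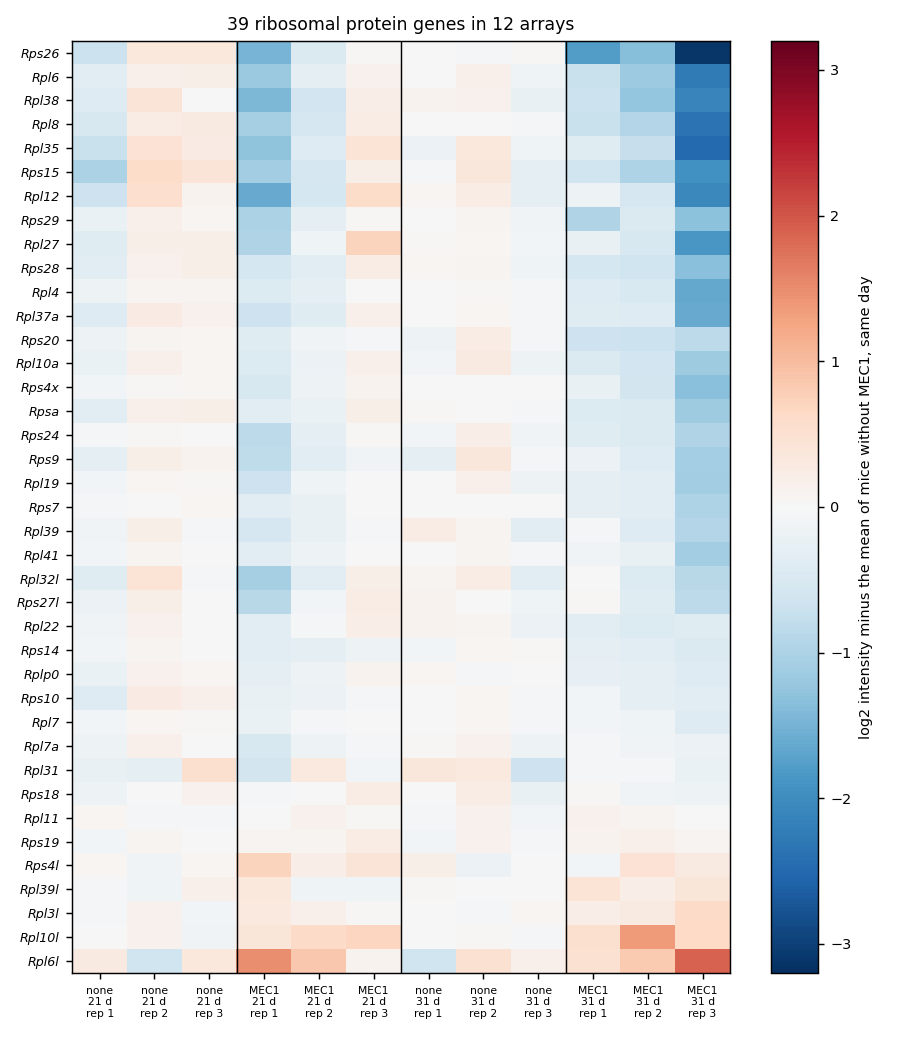
Log2 intensity of the 39 ribosomal protein genes in each array minus the mean of the 3 control mice of the same day (blue lower, red higher; genes ordered by their change at 31 days). MEC1 31 d replicate 3 is the bluest column and holds the lowest value of 25 of the 38 tested members, and MEC1 21 d replicate 1 is the bluest at 21 days.

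The same arrays differed in measures of the whole array. Spiked hybridisation controls, which should not vary, were brighter with MEC1 by 1.11 at 21 days and by 1.96 at 31 days (exact permutation p = 0.1 for each, the smallest that 3 against 3 allows), and stood at 13.18 in MEC1 31 d replicate 3. The array median was higher by 0.20 and 0.43. The poly-A controls, which are added before labelling, were brighter by 0.64 and 1.08 (exact permutation p = 0.1 for each). The median of 28 mitochondrial transcripts stood at 8.97, 9.72 and 9.09 in 31-day controls and at 8.04, 7.54 and 6.54 with MEC1, a difference of -1.88, and differed by -0.68 at 21 days (exact permutation p = 0.1 for each). When the hybridisation-control level entered the model as a covariate, no member passed at 31 days and the members' median change was 0.75. Of all 37240 tested clusters, 7 were higher and 0 were lower under that setting. These controls were brighter in every MEC1 array than in every array without MEC1, so the model can hardly separate their level from MEC1. The part of these array measures in the members' changes was not tested further.

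Several marker lists of marrow cells moved with the ribosomal protein genes at 31 days, and others did not. The shares over all tested clusters were 21.1% lower and 22.6% higher. All 9 tested erythroid genes were lower (median change -4.74), and the mean level of that list per array was 10.50 to 11.06 in controls and 5.15 to 5.79 with MEC1. All 16 tested proliferation genes were lower (median -2.25; 12.68 to 12.86 against 9.62 to 11.23), as were 8 of 11 progenitor genes (median -1.87; 7.05 to 7.33 against 5.59 to 6.08). Of 14 neutrophil genes 6 were lower and 1 was higher, with a mean list level of 12.90 to 13.31 in controls. Among all tested clusters at 12 to 14 in controls, 48% were lower, though single neutrophil genes lay at other levels. Of 14 monocyte and macrophage genes, which check the purified cell type, 10 were lower and 1 was higher, and the 8 defining markers had a mean level of 13.02 to 13.05 in controls and 10.49 to 12.30 with MEC1. Of 6 T and NK cell markers, 5 were not tested, and Cd3g was higher by 0.48 (adjusted p = 0.0198). This list was dim, with a mean level of 3.59 to 3.63 in controls and 3.93 to 4.07 with MEC1. All tested clusters at or below 4 in controls had a median change of 0.54. Of 4 tested B cell markers, Pax5 and Cd79a were higher by 2.23 and 0.78 (adjusted p = 8.5e-05 and 0.0186), and Ighm had a change of -4.54 (adjusted p = 0.000126). The mean level of the B cell list was 6.06 to 6.16 in controls and 5.79 to 6.04 with MEC1. None of 3 megakaryocyte markers passed (limma; 0 at an unadjusted p under 0.05), and their median change was 0.10. Which of these cell types carried the ribosomal protein signal was not tested.

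At 21 days 6 of the 9 erythroid genes were already lower (median -2.81), with list levels of 9.56 to 11.03 in controls and 6.35 to 9.44 with MEC1. The shares over all tested clusters were 2.51% lower and 1.83% higher on that day. Of the 14 monocyte and macrophage genes 3 were lower (Cx3cr1, Mrc1 and Cd14; list median -0.87) and 0 were higher, with list levels of 10.24 to 10.44 in controls and 9.50 to 9.82 with MEC1. Of 4 tested B cell markers 1 passed, Pax5, which was higher by 1.34 (adjusted p = 0.00378). The 4 changes ran from -0.75 to 1.34, and 1 was negative. None of the 16 tested proliferation genes passed on that day (limma; 0 at an unadjusted p under 0.05).

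Other genes of protein synthesis were taken from lists outside the naming rule. They are set beside all tested clusters near the mean control level of each list. Of those clusters, 41.7% were lower at 6 to 8, 56.6% at 8 to 10 and 48% at 12 to 14. Single genes of a list also lay at other levels, so the match is rough. Of 23 tested translation factors and related genes, 15 were lower and 0 were higher, with a median change of -0.88 and a mean control level per array of 12.14 to 12.36. They were listed for translation or oligopyrimidine starts, which were not read for this list. Their 31-day control means ran from 5.67 in Snhg6 to 19.53 in Eef1a1. Eef2, the elongation factor that moves the ribosome along the messenger RNA, fell by 2.31 (adjusted p = 0.00419), and Eif2s3x, a subunit of the factor that brings in the initiator tRNA, fell by 1.80 (adjusted p = 0.00769). Of 38 ribosome biogenesis genes, which act in the nucleolus, 24 were lower and 0 were higher (median -0.94, control level 8.86 to 9.13). Nolc1, a nucleolar phosphoprotein, fell by 1.72 (adjusted p = 0.0241) and Rrp1, which acts in ribosomal RNA processing, fell by 1.71 (adjusted p = 0.00711).

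Mitochondrial ribosomal proteins, which form the separate ribosome of mitochondria, had 27 of 75 lower and 0 higher (median -0.62, control level 7.16 to 7.28). Mrpl42 fell by 2.77 (adjusted p = 0.0216) and Mrpl37 fell by 2.54 (adjusted p = 0.00393). At 21 days 0 genes of each of these 3 lists passed (limma), with medians of -0.34, -0.06 and -0.12. At an unadjusted p under 0.05, 4, 1 and 6 of them were lower and 0 were higher. Among relatives with other names, Rpl7l1 fell by 1.39 (adjusted p = 0.0363) and Rpl22l1 had a change of -0.71 (adjusted p = 0.189).

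**Figure D4:**
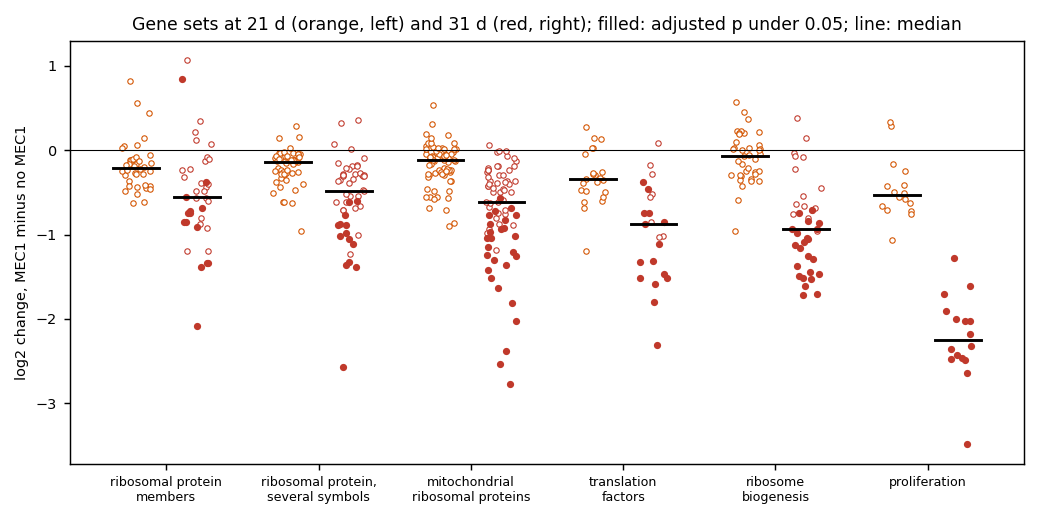
Log2 change with MEC1 of each tested gene or cluster (points; filled where adjusted p was under 0.05) in 6 sets at 21 days (orange, left) and 31 days (red, right), with the median as a line. At 31 days the medians are -0.56 for the ribosomal protein genes, -0.48 for clusters with several symbols and -0.62 for mitochondrial ribosomal proteins. They are -0.88 for the set labelled translation factors, -0.94 for ribosome biogenesis and -2.25 for proliferation genes. The set labelled translation factors also holds related genes such as Vim and Snhg5.

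The change of a cluster at 31 days depended on its brightness, so the members were set beside clusters of the same level. Among all tested clusters the median change was -0.59 at control levels of 6 to 8, -0.93 at 8 to 10, -1.06 at 10 to 12, -0.98 at 12 to 14, -0.75 at 14 to 16 and -0.34 over 16. For the members of these bins the medians were -0.38, -0.58, -0.32, -0.63, -0.72 and -0.87. Of the 38, 23 lay above the median of their bin and 15 below. In the bin over 16 all 7 members lay below the bin's median, and 20.4% of its 504 clusters were lower against 3 of the 7. From 6 upwards, the other bins had 4 of 10, 2 of 6, 0 of 3, 1 of 4 and 3 of 5 members lower. The shares of all tested clusters lower in those bins were 41.7%, 56.6%, 56.6%, 48% and 36.9%, in that order. Across the 38 genes, level and change had a Spearman correlation of -0.61 at 31 days and -0.51 at 21 days, given as a description because the genes share the same arrays.

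**Figure D5:**
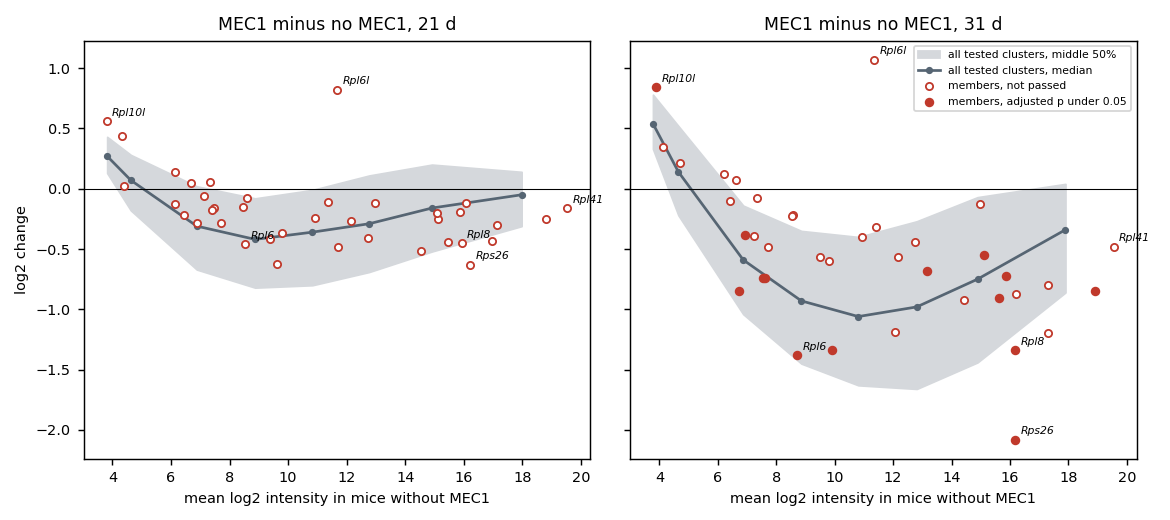
Log2 change with MEC1 against the mean log2 intensity in control mice of the same day, at 21 days (left) and 31 days (right), for the ribosomal protein genes (circles, filled where adjusted p was under 0.05) and all tested clusters (line, median of each level bin; band, middle 50%). At 31 days 23 of the 38 members lie above the median of their own level bin and 15 below. All 7 members over 16 lie below the median of that bin.

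Few members lay near the top of the scale, where a probe can saturate and a change is compressed. The brightest value of an array was 19.88 to 19.93 in controls and 19.41 to 19.58 with MEC1. Rpl41, the smallest ribosomal protein, stood at 19.53, 19.64 and 19.49 in 31-day controls and at 19.45, 19.31 and 18.45 with MEC1. It came within 0.04 of the brightest value of its array, and its change of -0.48 (SE 0.232) did not pass (adjusted p = 0.109). A second Rpl41 cluster, at 11.03 in 31-day controls and assigned to the gene's own chromosome, fell by 0.99 (SE 0.255, adjusted p = 0.0116). Rpl4 came within 0.79 of the brightest value and Rpl35 and Rpl37a within 2.19 and 2.27. Rpl37a, with a zinc finger, had a change of -0.80 (SE 0.331, adjusted p = 0.0702).

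Ribosomal protein genes have many near-identical processed pseudogenes, so a probe can read more than 1 locus, and clusters of the same gene did not always give the same value. In 6 members the identifier of the chosen cluster named another chromosome than that of the gene: Rpl41, Rpl35, Rpl27, Rpl7a, Rpl12 and Rpl31. Their values are therefore uncertain. Rpl7a had a change of -0.13 (SE 0.159, adjusted p = 0.529) in the chosen cluster, while the one on its own chromosome fell by 0.97 (SE 0.314, adjusted p = 0.029). For Rpl35 and Rpl27 the clusters on the own chromosome gave -0.26 and -0.61, neither of which passed (adjusted p = 0.266 and 0.0983), against -1.20 and -0.87 in the chosen ones. Rps26 had 3 clusters: beside the chosen one, a second fell by 2.36 (SE 0.49, adjusted p = 0.00451), and another, dim one had a change of -0.13 (adjusted p = 0.689). None of the 14 genes that passed was among the 6, and with own-chromosome clusters for 4 of the 6, and Rpl12 and Rpl31 left out for want of one, all 14 passed and 2 more did (36 genes tested).

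Clusters that carry several symbols, and so were outside the rule, held 37 of the other ribosomal protein symbols and further clusters of Rpl12, Rpl31 and Rpl32l. A further 7 symbols were in neither kind of cluster. Of 52 such clusters, 14 were lower and 0 were higher at 31 days, with a median change of -0.48. Of all tested clusters, 21.1% were lower and 22.6% were higher. At 21 days 0 passed (limma; 0 at an unadjusted p under 0.05). The largest change was in a cluster with Rpl29, which fell by 2.57 (adjusted p = 0.00237), followed by clusters with Rpl14, Rpl10 and Rpl28, which fell by 1.39, 1.36 and 1.33. A second cluster with Rpl29 had a change of -0.15 (adjusted p = 0.581). For the pair of clusters with Rps27 the values were 0.32 and 0.36, and neither passed (adjusted p = 0.475 and 0.186). Clusters with symbols ending in -ps, which mark pseudogenes, had 34 lower and 16 higher of 215 tested at 31 days, with a median change of -0.31. The shares over all tested clusters were again 21.1% and 22.6%.

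Because these genes share a known start signal, the RefSeq sequence around their annotated start (GRCm38.p6) was read, and 32 of the 39 members had an entry. Below are the 40 bases before the start and the first 25 bases of the transcript, 5′ to 3′ on the gene's strand. Capitals mark the longest run of C followed by pyrimidines near the start. They show 2 genes with large falls (Rps26 and Rpl38), 2 with other changes that passed (Rpl4 and Rps4x) and 2 that changed little (Rps18 and Rps10). The Rps26 window lies at chr10:128626482-128626546 on the minus strand, Rpl38 at chr11:114668540-114668604 on the plus strand, Rpl4 at chr9:64173347-64173411 on the plus strand, Rps4x at chrX:102189367-102189431 on the minus strand, Rps18 at chr17:33955641-33955705 on the minus strand and Rps10 at chr17:27635220-27635284 on the minus strand.
Rps26: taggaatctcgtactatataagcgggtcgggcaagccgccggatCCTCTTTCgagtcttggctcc
Rpl38: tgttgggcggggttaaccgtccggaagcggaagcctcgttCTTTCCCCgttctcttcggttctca
Rpl4: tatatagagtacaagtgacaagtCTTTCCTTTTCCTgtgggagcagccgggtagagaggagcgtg
Rps4x: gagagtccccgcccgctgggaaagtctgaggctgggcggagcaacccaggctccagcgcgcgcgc
Rps18: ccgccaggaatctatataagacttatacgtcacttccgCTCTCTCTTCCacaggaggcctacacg
Rps10: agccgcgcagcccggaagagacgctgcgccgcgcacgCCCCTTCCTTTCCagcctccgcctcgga

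In Rpl38 the run of 8 pyrimidines opens at the first transcribed base, and in Rps18 and Rps10 runs of 11 and 13 span the start. In Rps26 a run of 8 opens at base 5, in Rpl4 one of 13 ends before the start, and in Rps4x no run was found. A C with at least 4 pyrimidines after it stood exactly at the start in 5 of 32 members (15.6%) and in 3.01% of the 27025 genes of the promoter table. Within 20 bases of the start, a window chosen after the letters were seen, such a run was present in 27 of 32 (84.4%) and in 52.2% of all genes. It was present in 6 of the 9 members with an entry that were lower at 31 days and in 20 of the 22 tested members that were not.

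The other motifs were searched on both strands over 300 bases, 250 before the start and 50 after it. CGGAAG, the core bound by ETS factors, was found in 21 of 32 members (65.6%) and in 18.8% of all genes. It was found in 7 of 9 members lower at 31 days, in 14 of 22 that were not, and in 38 of 66 mitochondrial ribosomal protein genes. TATAAA was found in 5 of 32 members (15.6%) and in 15.7% of all genes, and GGAAGC, which overlaps CGGAAG in CGGAAGC, in 11 of 32 (34.4%) and in 29.6%. A match describes the letters only.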

How the data were processed

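The deposited table holds log2 intensities per transcript cluster, made by the authors with Affymetrix Expression Console and RMA per the submitters' processing notes. Their genome build is not given in the sources used here. Control features were left out (6732 of 72688), and 31258 clusters had 1 symbol in the platform annotation after updating to RefSeq. A cluster was tested if it exceeded its array's median in at least 3 arrays. A model with 4 group means was fitted to all 37240 with limma 3.58.1 in R 4.3.3, with empirical Bayes, two-sided tests and Benjamini-Hochberg adjustment over all clusters, and was tested on simulated data. Mice were separate animals with 1 array each, so p-values measure the spread between mice and between their arrays together. Named genes were, per comparison, up to 6 passing members per direction with the largest change, or at least 3 (2 for the difference and for time) added by rank of p, plus a fixed set of reference genes, paralog pairs and level extremes, and up to 2 per other list. Other members are named where a count is spelled out. The members and lists were chosen with earlier results of these data known. Alternatives changed the filter, scaling, weights, moderation, arrays, cluster choice, covariate and block.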

Additional observations from a re-analysis of the deposited data

How the results depend on the processing

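Array weights gave 2 higher and 15 lower at 21 days, where 22.7% and 20.1% of all tested clusters were called. At 31 days the number higher, 1 in the main analysis, was 2 with no filter, 0 with a filter at the 70th percentile, 4 with quantile normalization, 0 with centred arrays, 0 with the hybridisation-control covariate and 2 when quantile normalization also left out MEC1 31 d replicate 3. The shares of all tested clusters higher in these settings were 33%, 13.7%, 13.5%, 7.48%, 0.0188% and 10.3%, in that order. The number lower, 13 in the main analysis, was 3, 25, 0 and 1 with quantile normalization, centring, the covariate and quantile normalization lacking that array, and ran from 2 to 19 when each array was left out. The shares of all tested clusters lower were 15.1%, 36.9%, 0% and 9.29%, and 14.4% to 22.5% when each array was left out. With the replicate number as a block the number lower was 7, and the higher count stayed at 1, against 19.2% and 19.7% of all tested clusters. Same-numbered arrays had correlations of -0.36 to 0.42 after the group means were removed. With 3 arrays per group, these values cannot show whether the numbers pair the mice. The median change at 31 days, -0.56 in the main analysis, was -0.08 with quantile normalization, -0.99 with centring, 0.75 with the covariate and -0.03 with quantile normalization lacking that array. With the covariate the median was 0.61 at 21 days and 0.27 for the difference of the effects, and these genes turned positive at 31 days without passing: Rpl10a 0.68, Rpl38 1.39, Rpl4 1.45, Rpl6 1.62, Rpl8 1.76, Rps26 0.73, Rps28 0.72, Rps29 0.35, Rps4x 1.23, Rps7 0.77 and Rpsa 0.60. Rps14 was 0.14 with quantile normalization and 0.10 without that array as well, and Rps18 and Rpl7 were 0.56 and 0.48 with quantile normalization. The cause of these shifts was not tested. With the covariate, 7 of 37240 clusters were higher and 0 lower at 31 days. Its level was higher in every MEC1 array than in every array without MEC1, so this setting can hardly separate it from MEC1. Low signal kept 1 member, Rpl3l, from being tested, and the tested Rpl10l, Rpl39l and Rps4l were dim as well. Clusters assigned to the gene's own chromosome were an alternative chosen after seeing the data.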
